A study of Homo sapiens with 5 samples.

Results

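OLIG1, OLIG2, EGFR, PDGFRA, SOX10, BCAS1, MBP and CNP are 8 genes that mark successive steps on the way from a neural progenitor to a myelinating oligodendrocyte. They were chosen by name, with earlier results of these data known, and make up 8 of the 32732 genes listed in both human annotations of the series. Their RNA was followed in 34390 human cells of 5 libraries by stage, by graft site and within single cells. All 8 genes had enough counts to be tested in every comparison.

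Brain organoids were grown from the human embryonic stem cell line H9 carrying AAVS-ChR2-EYFP, an established line labelled wild type in which a light-gated channel and a yellow fluorescent protein sit in a safe-harbour locus. The D0 library holds organoids kept in vitro to culture day 42 and not grafted. The other 4 libraries hold organoids of that age that had been injected, about 5 per site, into the hippocampus (HIP) or the prefrontal cortex (PFC) of immunodeficient SCID-Beige mice, 6 to 8 weeks old at grafting, and taken out 2 or 4 months post transplantation (2MPT, 4MPT). EYFP-positive tissue was dissected under a fluorescence microscope. Every library came from that single line, there was 1 library per condition, and mice were pooled, with the number behind each graft library not given in the sources used here. D0 was dissociated with TrypLE and grafts with Trypsin-EDTA, and the deposited counts of D0 and of grafts came from different releases of Cell Ranger, so that these differences cannot be told apart from transplantation in any comparison with D0.

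Oligodendrocytes arise from ventral and, later, dorsal forebrain progenitors that switch on the basic helix-loop-helix factors OLIG1 and OLIG2. The receptor tyrosine kinase EGFR is held by glial and subventricular progenitors that still divide, whereas PDGFRA, the receptor for platelet-derived growth factor A, is the classical surface marker of committed oligodendrocyte progenitors. The HMG-box factor SOX10 is switched on in committed cells and drives myelin genes, BCAS1 marks newly formed oligodendrocytes, and MBP and CNP encode proteins of compact and non-compact myelin.

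Promoter windows of PDGFRA and CNP are shown because OLIG factors bind E-boxes (CANNTG) and because PDGFRA rose between the graft stages with OLIG1 and OLIG2 whereas CNP did not pass the test. In the RefSeq table (GRCh38.p14), which runs from 250 bases before to 50 bases after each annotated start, 4 of the 8 genes had an entry, with 8 windows between them. A searched E-box was in 3 windows, and for PDGFRA and CNP the 250 bases before the start follow, with the E-box in capitals.
PDGFRA, chr4:54233710-54233959, plus strand: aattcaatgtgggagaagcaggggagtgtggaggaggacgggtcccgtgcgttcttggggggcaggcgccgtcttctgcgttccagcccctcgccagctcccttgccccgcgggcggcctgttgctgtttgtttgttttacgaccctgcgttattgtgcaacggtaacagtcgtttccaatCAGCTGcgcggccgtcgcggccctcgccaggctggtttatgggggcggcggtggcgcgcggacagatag
CNP, chr17:41967547-41967796, plus strand: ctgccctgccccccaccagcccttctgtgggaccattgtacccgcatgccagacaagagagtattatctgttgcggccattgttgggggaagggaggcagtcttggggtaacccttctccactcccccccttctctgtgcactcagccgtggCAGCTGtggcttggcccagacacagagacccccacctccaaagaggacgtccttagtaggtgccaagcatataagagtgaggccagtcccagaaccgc
The E-box CAGCTG, which reads the same on both strands, began 69 bases before the start in PDGFRA, 98 bases before it in CNP and 108 bases before it in MBP, and MBP also held CAGATG at 207 bases before the start. Among all 35116 windows of that length, 17.9% held CAGCTG and 14.7% held CAGATG on either strand, so that a match is common. All 3 starts lie inside the gene as annotated by GENCODE, and the MBP window overlaps exons of longer MBP transcripts. The SOX core ACAAAG, held by 16.1% of all windows, was in none of the 8 windows of these genes.

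The 5 libraries gave 4885 to 8363 human cells and between 11192237 and 55892222 human UMIs (unique molecular identifiers, each a counted RNA molecule). The median cell had 9847 UMIs in D0 but 1253 to 2759 in grafts, and pairs of libraries shared 6 to 20 cell barcodes. PFC_4MPT stood apart in its median mitochondrial share, 7.31% against 2.35% to 3.77% in the other libraries. Levels are given as CPM (UMIs scaled to a fixed library total) with 95% Poisson intervals, and shares of cells with exact binomial intervals. Neither interval covers more than counting error. A library's CPM rises with the number of cells that hold an RNA and with the amount in each, which a sum over cells does not tell apart. The 4 microglial markers summed to 770 UMIs in D0 and to 29 to 89 UMIs in each graft library. Among them C1QA was at 0 in all 5 libraries, and P2RY12 was at 0 in D0. GPR17, a marker of committed progenitors, was at 0 in D0, HIP_2MPT and PFC_2MPT.

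**Figure D1:**
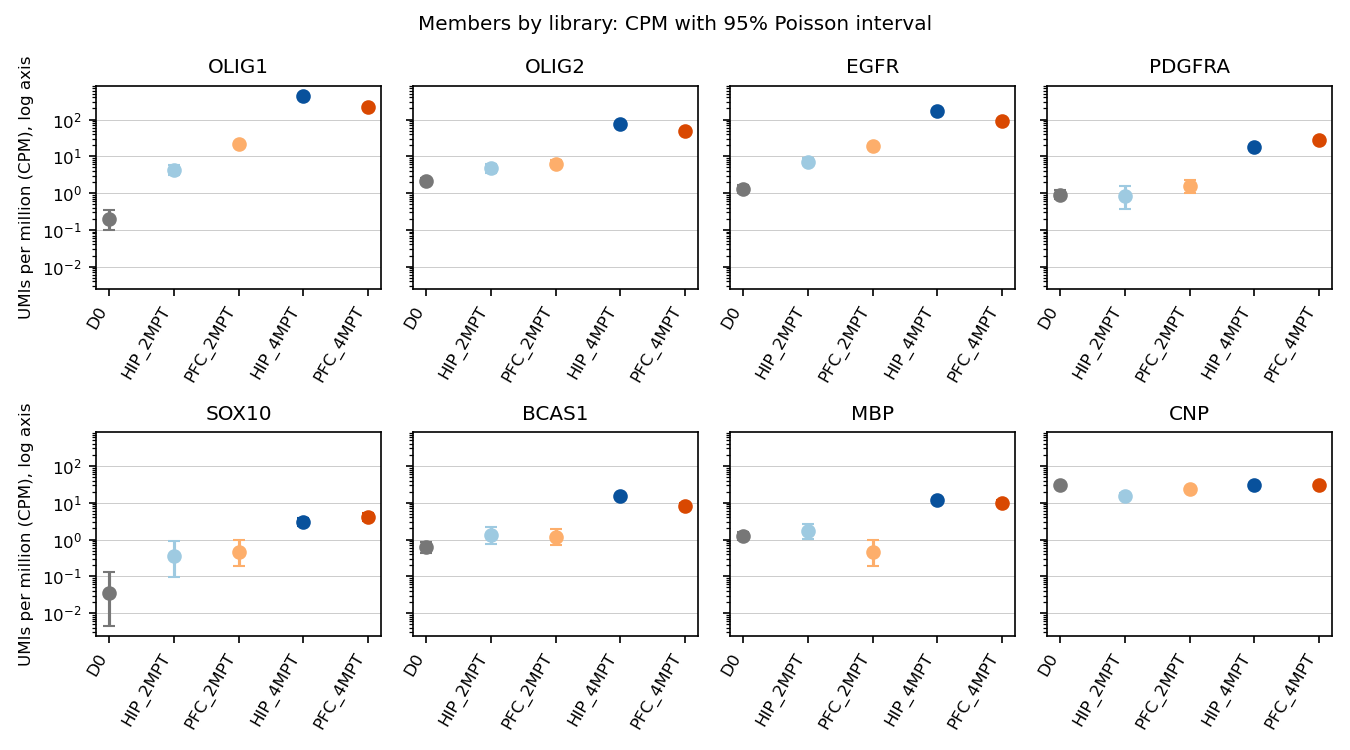
Level of each gene in each library, in CPM (log axis), with 95% Poisson intervals that cover counting error only and 1 library per point. The intervals of OLIG1, OLIG2 and EGFR lie above that of D0 in both 2MPT libraries. Those of PDGFRA, SOX10, BCAS1 and MBP do so in both libraries only at 4MPT. The share of all genes that do so was not computed. CNP stays between 15.7 and 31.3 CPM.

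Among the 8 genes, OLIG1, OLIG2 and EGFR were those whose Poisson intervals already lay above that of D0 in both grafts at 2MPT. The share of all genes that meet this rule at either stage was not computed, so the onsets below describe these genes only. OLIG1, a protein-coding gene on chromosome 21 from 33070141 to 33072413 (plus strand, GRCh38), was counted at 0.197 CPM in D0 (11 UMIs), 4.25 CPM in HIP_2MPT (47 UMIs), 21.9 CPM in PFC_2MPT (327 UMIs), 448 CPM in HIP_4MPT (9490 UMIs) and 221 CPM in PFC_4MPT (3684 UMIs). None of these 5 intervals overlapped, so that every graft library stood above D0 and both 4MPT libraries above both 2MPT libraries. Its neighbour OLIG2, which lies on the same strand from 33025935 to 33029196 with 40945 bases between the pair, was counted at 2.15 CPM in D0 (120 UMIs), 4.70 CPM in HIP_2MPT (52 UMIs), 6.35 CPM in PFC_2MPT (95 UMIs), 74.3 CPM in HIP_4MPT (1574 UMIs) and 48.0 CPM in PFC_4MPT (799 UMIs). The order of the libraries was that of OLIG1, except that the intervals of the 2MPT libraries overlapped (3.51 to 6.16 CPM and 5.14 to 7.76 CPM). EGFR, on chromosome 7 from 55019017 to 55211628 (plus strand), was counted at 1.31 CPM in D0 (73 UMIs), 7.14 CPM in HIP_2MPT (79 UMIs), 18.9 CPM in PFC_2MPT (283 UMIs), 173 CPM in HIP_4MPT (3673 UMIs) and 88.3 CPM in PFC_4MPT (1471 UMIs). Its 5 intervals were separate as well and followed the same order.

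By separate Poisson intervals, the committed-progenitor genes PDGFRA and SOX10 were above D0 in both grafts only at 4MPT. PDGFRA, on chromosome 4 from 54229280 to 54298245 (plus strand), was counted at 0.913 CPM in D0 (51 UMIs), 0.813 CPM in HIP_2MPT (9 UMIs), 1.54 CPM in PFC_2MPT (23 UMIs), 17.4 CPM in HIP_4MPT (368 UMIs) and 28.0 CPM in PFC_4MPT (466 UMIs). The lower 3 libraries overlapped with each other, and PFC_4MPT was above HIP_4MPT. Of the 51 PDGFRA UMIs in D0, 39 lay in a cluster led by TTR, the transthyretin gene that is abundant in choroid plexus, which also held 4 of 6 mesenchyme and pericyte markers. SOX10, on chromosome 22 from 37970686 to 37987422 (minus strand), rested on few molecules throughout, with 2 UMIs in D0 (0.0358 CPM). It had 4 UMIs (0.361 CPM, HIP) and 7 UMIs (0.468 CPM, PFC) at 2MPT, and 64 UMIs (3.02 CPM, HIP) and 69 UMIs (4.14 CPM, PFC) at 4MPT. The 4MPT libraries overlapped with each other (2.33 to 3.86 CPM and 3.22 to 5.24 CPM) and lay above the 2MPT libraries. Against the 2 UMIs of D0, the ratio of CPM was 10.1 in HIP_2MPT (counting interval 1.45 to 112) and 13.1 in PFC_2MPT (2.49 to 129). Both of these intervals lay above 1, on few molecules. In HIP_4MPT the ratio was 84.4 (22.4 to 712).

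By separate Poisson intervals, BCAS1 and MBP, genes of newly formed and myelinating oligodendrocytes, also stood above D0 in both grafts only at 4MPT. CNP stood above D0 at neither stage. BCAS1, on chromosome 20 from 53936777 to 54070594 (minus strand), was counted at 0.609 CPM in D0 (34 UMIs), 1.36 CPM in HIP_2MPT (15 UMIs), 1.20 CPM in PFC_2MPT (18 UMIs), 14.97 CPM in HIP_4MPT (317 UMIs) and 8.40 CPM in PFC_4MPT (140 UMIs). The intervals of both 2MPT libraries overlapped with that of D0. The ratio of CPM to D0 was nevertheless 2.23 in HIP_2MPT (counting interval 1.13 to 4.20) and 1.98 in PFC_2MPT (1.05 to 3.60). HIP_4MPT was the higher of the 4MPT libraries. MBP, on chromosome 18 from 76978827 to 77133683 (minus strand), was counted at 1.27 CPM in D0 (71 UMIs), 1.72 CPM in HIP_2MPT (19 UMIs), 0.468 CPM in PFC_2MPT (7 UMIs), 11.8 CPM in HIP_4MPT (249 UMIs) and 9.90 CPM in PFC_4MPT (165 UMIs). PFC_2MPT was below D0 and HIP_2MPT, and the 4MPT libraries overlapped with each other. In D0, 49 of the 71 MBP UMIs were in glutamatergic neuron-like clusters. CNP, which encodes a cyclic nucleotide phosphodiesterase, lies on chromosome 17 from 41966763 to 41977740 (plus strand) and was counted at 31.1 CPM in D0 (1738 UMIs), 15.7 CPM in HIP_2MPT (174 UMIs), 23.4 CPM in PFC_2MPT (350 UMIs), 31.3 CPM in HIP_4MPT (663 UMIs) and 31.3 CPM in PFC_4MPT (522 UMIs). D0 and the 4MPT libraries overlapped, and both 2MPT libraries lay below them.

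Between the graft stages, 7 of the 8 genes rose, which asks when after grafting the lineage genes appear. UMI sums per library were fitted with edgeR's quasi-likelihood test across all genes, with the HIP and PFC libraries as the 2 libraries of a stage and Benjamini-Hochberg adjustment over 19074 genes, so that p-values measure the spread between these libraries, which differ in site as well. Of all genes tested, 1.85% were called higher and 0.550% lower at 4MPT than at 2MPT (2.40% in either direction). OLIG1 rose by 4.69 on the log2 scale (SE 0.63, adjusted p = 0.00364), OLIG2 by 3.50 (SE 0.30, adjusted p = 0.000448) and EGFR by 3.35 (SE 0.45, adjusted p = 0.00352). PDGFRA rose by 4.29 (SE 0.44, adjusted p = 0.000975) and SOX10 by 3.13 (SE 0.56, adjusted p = 0.0164). BCAS1 rose by 3.24 (SE 0.42, adjusted p = 0.00335) and MBP by 3.42 (SE 0.52, adjusted p = 0.007). CNP, at 0.73 (SE 0.26, adjusted p = 0.223), did not pass the test. All 7 rises were in the same direction within each site. OLIG1 was 106-fold higher at 4MPT than at 2MPT in HIP, with a counting interval of 79.3 to 144, and 10.1-fold higher in PFC (9.03 to 11.4). The ratio of MBP was 6.85 in HIP (4.29 to 11.6) and 21.2 in PFC (10.04 to 53.5), and those of the other 5 lay between 4.67 and 24.3. Without PFC_4MPT only OLIG2 stayed past the threshold (adjusted p = 0.0334) and 32 genes in all were called, while the other 6 were at 2.85 (SOX10) to 5.09 (OLIG1) on the log2 scale with adjusted p from 0.0611 to 0.235. Without HIP_4MPT SOX10 alone was lost (3.39, adjusted p = 0.0565) and 207 genes were called. Without PFC_2MPT CNP passed as well (adjusted p = 0.0297) and 1508 genes were called.

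From D0 to 2MPT, 4 of the 8 genes rose and 1 fell, in a comparison in which 27.2% of all genes were called higher and 21.1% lower. OLIG1 rose by 5.68 on the log2 scale (SE 1.03, adjusted p = 0.00127 by edgeR), EGFR by 2.96 (SE 0.61, adjusted p = 0.0027), SOX10 by 3.03 (SE 0.96, adjusted p = 0.0236) and OLIG2 by 1.00 (SE 0.37, adjusted p = 0.0438). CNP fell by 1.03 (SE 0.31, adjusted p = 0.0172). PDGFRA, BCAS1 and MBP, at 0.03, 0.69 and -0.65, did not pass the test. The calls of OLIG1 and EGFR held when each graft library was left out in turn, and the others did not. OLIG2 was lost without PFC_2MPT, HIP_4MPT or PFC_4MPT (adjusted p up to 0.147), SOX10 without PFC_2MPT or PFC_4MPT and under DESeq2 (adjusted p = 0.0509), and CNP without HIP_2MPT or PFC_4MPT. Without HIP_2MPT, MBP was called lower at 2MPT (adjusted p = 0.0298). At 4MPT against D0, where 28.7% of all genes were called higher and 21.4% lower, the same 7 genes as between the graft stages were higher, by 2.77 (MBP) to 10.37 (OLIG1) on the log2 scale, and CNP, at -0.31, did not pass (adjusted p = 0.43). D0 had no second library and was assumed to vary like the grafts.

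**Figure D2:**
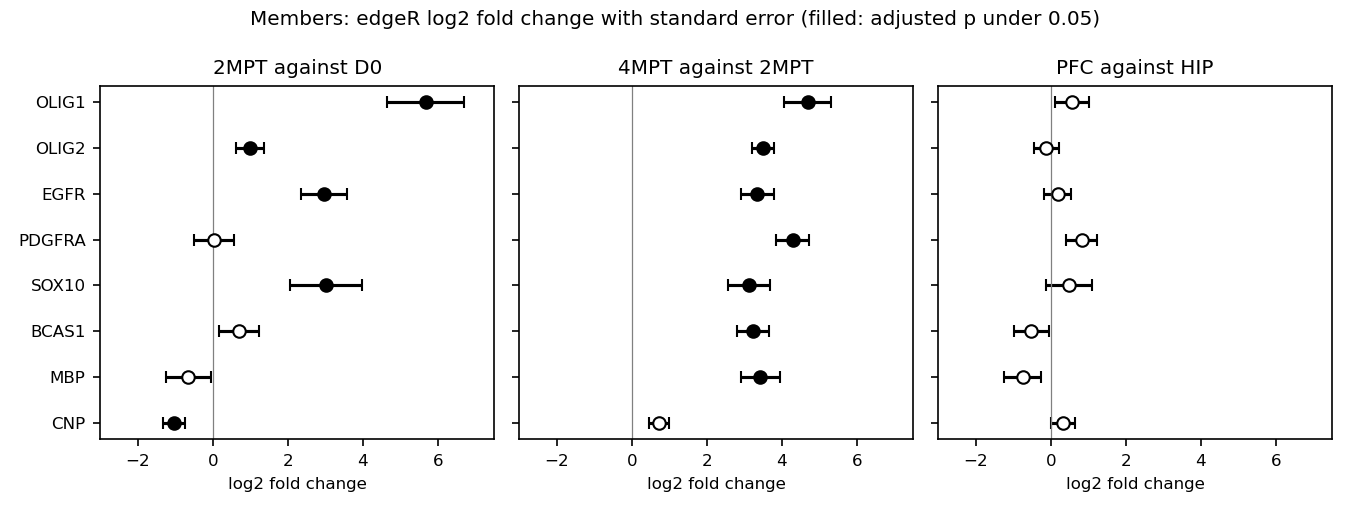
Log2 fold change of each gene from edgeR, for 2MPT against D0, 4MPT against 2MPT and PFC against HIP. Bars give a standard error computed from the F statistic, and filled points have an adjusted p under 0.05. Between the graft stages 7 of 8 points are filled and lie between 3.13 and 4.69, and between the sites none is filled.

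Between the graft sites, none of the 8 genes passed the test. The fit took the 4 graft libraries, PFC against HIP, and adjusted for stage, and 15 of 17121 genes (0.0876%) were called. The log2 fold changes of the 8 genes ran from -0.75 (MBP) to 0.82 (PDGFRA), all with an adjusted p of 1, and none had an unadjusted p under 0.05 by edgeR (lowest 0.0598) or by DESeq2 (lowest 0.0941). With 1 residual degree of freedom, leaving out a library could not be fitted. Within a stage, the counts of OLIG1 went opposite ways, with a ratio of PFC to HIP of 5.15 at 2MPT (3.78 to 7.15) and 0.494 at 4MPT (0.475 to 0.513). The ratios of EGFR were 2.65 at 2MPT (2.06 to 3.45) and 0.509 at 4MPT (0.479 to 0.541). OLIG2, at 1.35 (0.954 to 1.93), did not differ between the sites beyond counting error at 2MPT, and its ratio was 0.645 (0.592 to 0.703) at 4MPT. PDGFRA was 1.61-fold higher in PFC at 4MPT (1.40 to 1.85), and BCAS1 was lower there, with a ratio of 0.561 (0.457 to 0.687). The intervals of SOX10 (0.961 to 1.96) and MBP (0.688 to 1.03) included 1 at 4MPT. With 1 library per site and stage, these intervals compare libraries and not sites.

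In single cells, the shares with OLIG1, OLIG2 and EGFR at 4MPT were far above those in neuron-like cells. The source of these RNAs in neuron-like cells was not tested. Each cell was thinned to 1000 UMIs, which left out 183 to 1732 shallower cells per library. OLIG1 was then found in 0.0434% of D0 cells. At 2MPT it was found in 0.229% (HIP) and 1.10% (PFC) of cells, at 4MPT in 16.6% (HIP) and 10.4% (PFC), and in 1.79% and 1.76% of the glutamatergic neuron-like cells of the 4MPT libraries, which should lack it. The neuron-like cells had a median of 2419 UMIs in HIP_4MPT and 1755.5 in PFC_4MPT. EGFR was found in 10.2% of HIP_4MPT and 6.11% of PFC_4MPT cells against 1.08% and 1.37% in neuron-like cells, and OLIG2 in 5.33% and 3.48% against 0.483% and 0.395%. These 3 genes were thus found beyond the neuron level at both sites.

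The later genes were found in few cells at 4MPT, and more often outside the neuron-like clusters than in them. PDGFRA was found in 1.17% of HIP_4MPT and 1.79% of PFC_4MPT cells against 0.199% and 0.289% in neuron-like cells. SOX10 was found in 0.312% of HIP_4MPT cells (0.193% to 0.477%, 21 cells) against 0.114% of neuron-like cells (0.0310% to 0.291%), and in 0.300% of PFC_4MPT cells (22 cells) against 0.0789%. BCAS1 was found in 0.371% (0.241% to 0.548%) and 0.327% of cells against 0.0852% (0.0176% to 0.249%) and 0.105%. Outside the neuron-like clusters, SOX10 was found in 0.530% of HIP_4MPT cells (0.309% to 0.847%, 17 cells) and 0.537% of PFC_4MPT cells (0.324% to 0.838%, 19 cells), and BCAS1 in 0.686% (0.430% to 1.04%) and 0.565% (0.346% to 0.872%). These intervals lay above those of neuron-like cells. MBP was found in 0.773% and 0.600% against 0.170% and 0.158%, with separate intervals. CNP was found in 2.59% and 2.83% of cells against 1.59% and 1.82%, also with separate intervals, and in 2.87% of D0 cells. No thinned D0 cell held SOX10, 0 of 4603 cells, which allows a share of up to 0.0652%. The share for SOX10 at 2MPT, 0.0458% and 0.0351%, was that of 3 and 2 cells. Without thinning, OLIG2 was in 2.31% of D0 cells, whose depth was several times that of grafts. Where found at 4MPT, RNA of OLIG1 and BCAS1 came in several copies per thinned cell, 2.41 and 2.92 UMIs on average in HIP_4MPT, whereas SOX10 came as 1 UMI in 20 of 21 cells.

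Within cells, the genes paired within an early and a late set, and also across them. At 4MPT, 77.7% of cells with OLIG2 also held OLIG1 in HIP (73.1% to 81.9%) and 67.8% in PFC (61.7% to 73.5%), against 13.1% and 8.29% of cells without OLIG2. Of cells with EGFR, 63.1% held OLIG1 in HIP and 43.8% in PFC, against 11.3% and 8.19% of cells without EGFR. Of cells with PDGFRA, 60.8% and 55.7% held OLIG1 and 22.8% and 10.7% held EGFR, where cells without PDGFRA held EGFR in 10.1% and 6.02%. OLIG1 thus accompanied both receptors. Of cells with SOX10, 61.9% (HIP) and 45.5% (PFC) held OLIG1, against 16.4% and 10.3% of cells without SOX10. PDGFRA was held by 19.0% and 27.3% of cells with SOX10, against 1.12% and 1.71% of cells without it. Already at PFC_2MPT, 21 cells held OLIG1 with EGFR, 23.2 times the number expected if the genes fell independently over cells.

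The late genes shared cells with each other and with early genes. Of 4MPT cells with BCAS1 or MBP, 36 of 68 in HIP and 32 of 58 in PFC also held OLIG1, OLIG2 or EGFR. Among all thinned cells, 1427 of 6730 and 1077 of 7337 did. BCAS1 and MBP were found together in 9 HIP_4MPT and 10 PFC_4MPT cells, 46.6 and 69.5 times the number expected of independent genes. BCAS1 and SOX10 shared 7 and 5 cells (89.7 and 69.5 times) and SOX10 and MBP shared 5 and 5 cells (30.8 and 37.9 times). Rare genes can reach higher ratios than common ones, so these ratios do not rank late pairs above early ones. Of cells with BCAS1, 36.0% and 41.7% held MBP. EGFR shared 1 and 2 cells with SOX10, against 2.15 and 1.34 expected, and 1 and 1 cell with BCAS1, against 2.56 and 1.47 expected. These EGFR counts are too low to tell from independence. EGFR and MBP shared 10 and 4 cells, 1.88 and 1.49 times the number expected. At 4MPT, 204 cells of HIP and 117 cells of PFC held 4 or more of the 8 genes without thinning, against 1 cell in D0, 0 in HIP_2MPT and 5 in PFC_2MPT. Thinned to 1000 UMIs, these were 34 and 15 cells, against 0 in D0, 0 in HIP_2MPT and 1 in PFC_2MPT. Cells of a library share its depth and its free RNA, and these shares are descriptions of each library.

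**Figure D3:**
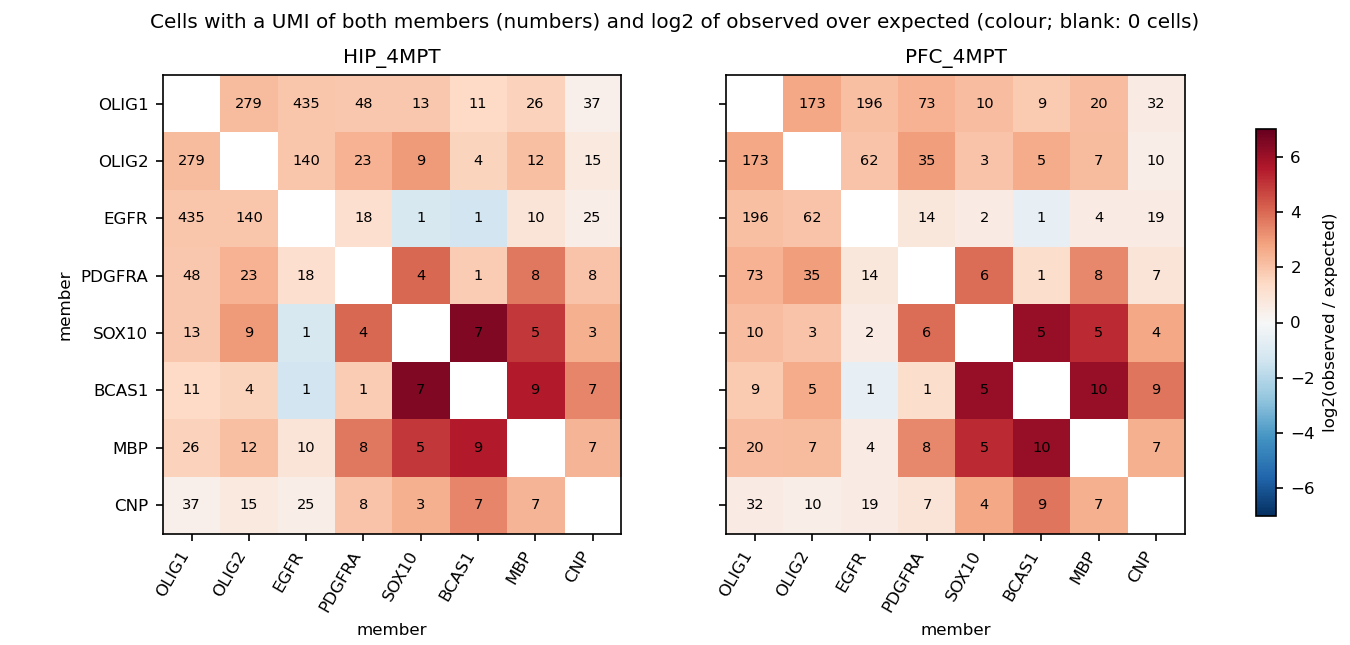
Number of 4MPT cells, thinned to 1000 UMIs, with a UMI of both genes of a pair (numbers), and log2 of that number over the number expected if the genes fell independently over cells (colour; blank where 0 cells). The deepest colours are among SOX10, BCAS1 and MBP, and the EGFR squares with SOX10 and BCAS1 hold 1 or 2 cells.

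Clusters were then made without the 8 genes, to see where among the other cells their RNA lay. Of 21 clusters, 1 of 163 cells was named oligodendrocyte progenitor-like, since all 8 of its markers (CSPG4, PCDH15, LHFPL3, COL9A1, TNR, GPR17, APOD and SMOC1) passed. It also passed 6 of 7 oligodendrocyte markers, had BCAS1, GPR17 and MBP among its leading genes, and held 60 cells of HIP_4MPT, 100 of PFC_4MPT, 3 of HIP_2MPT and none of D0 or PFC_2MPT. A second cluster of 1408 cells was left unnamed, because its leading genes held OLIG1 and OLIG2 but no astrocyte marker. It was led by GSX1, a homeobox factor of ventral forebrain progenitors, carried 4 of 8 astrocyte markers (GFAP, AQP4, SPARCL1 and SLC1A2), and held 761 cells of HIP_4MPT, 574 of PFC_4MPT, 28 of HIP_2MPT, 39 of PFC_2MPT and 6 of D0. The early genes lay mainly in the GSX1-led cluster and the late genes in the oligodendrocyte progenitor-like cluster, with PDGFRA in both.

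At 4MPT the GSX1-led cluster held 62.4% of the OLIG1 UMIs of HIP and 57.0% of those of PFC, 62.6% and 55.7% of those of OLIG2, and 52.4% and 45.3% of those of EGFR. It held 30.4% and 20.0% of the PDGFRA UMIs, but 1 of 64 and 7 of 69 SOX10 UMIs and 1.26% and 1.43% of those of BCAS1. The oligodendrocyte progenitor-like cluster, with 160 cells at 4MPT, held 45.1% and 44.2% of the PDGFRA UMIs, 68.8% and 69.6% of those of SOX10, 77.9% and 82.9% of those of BCAS1 and 57.0% and 64.2% of those of MBP. It held 9.95% and 11.5% of the CNP UMIs, 4.93% and 11.6% of those of OLIG1 and 0.163% and 0.612% of those of EGFR.

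Per UMI of the cluster, OLIG1 stood at a like level in both clusters in HIP_4MPT, 2332 CPM (2125 to 2553) in the oligodendrocyte progenitor-like and 2177 CPM (2122 to 2234) in the GSX1-led cluster, whereas in PFC_4MPT it was at 1697 CPM (1540 to 1866) and 1353 CPM (1296 to 1412). OLIG2 was higher per UMI in the oligodendrocyte progenitor-like cluster at both sites. In HIP_4MPT it had 153 UMIs in the 60 cells of that cluster, against 985 UMIs in the 761 cells of the GSX1-led cluster. In PFC_4MPT these were 141 UMIs in 100 cells and 445 UMIs in 574 cells. EGFR and PDGFRA took opposite sides. EGFR was at 29.9 CPM (10.97 to 65.1) against 708 CPM (676 to 739.9) in HIP_4MPT and at 35.8 CPM (16.4 to 67.9) against 429 CPM (397 to 463) in PFC_4MPT. PDGFRA was at 827 CPM (706 to 963) against 41.2 CPM (33.9 to 49.5) in HIP_4MPT and at 819 CPM (711 to 938) against 59.9 CPM (48.4 to 73.4) in PFC_4MPT. SOX10 was at 219 CPM and 191 CPM in the oligodendrocyte progenitor-like cluster of HIP_4MPT and PFC_4MPT, BCAS1 at 1231 CPM and 461 CPM, MBP at 708 CPM and 421 CPM, and CNP at 329 CPM and 238 CPM. Of its thinned cells, 78.0% and 70.8% held OLIG1, 45.8% at both sites held PDGFRA, 22.0% and 14.6% held SOX10, 25.4% and 16.7% held BCAS1 and 30.5% and 18.8% held MBP. The intervals of BCAS1 (1082 to 1394 CPM and 381 to 553 CPM) and MBP (596 to 834 CPM and 345 to 509 CPM) were apart between the sites, on 60 and 100 cells of 1 library each.

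EGFR was not confined to the GSX1-led cluster. In an astrocyte-like cluster of HIP_4MPT it reached 1018 CPM (914 to 1130), and 561 CPM (456 to 682) in that of PFC_4MPT. EGFR was among the leading genes of that cluster. In the radial glia-like cluster it was at 502 CPM (HIP) and 299 CPM (PFC). OLIG1 was at 437 CPM and 365 CPM in that astrocyte-like cluster and at 1157 CPM and 433 CPM in the radial glia-like cluster. At PFC_2MPT, the 39 cells of the GSX1-led cluster held 142 OLIG1 UMIs, 43.4% of that library's, and reached 1239 CPM (1043 to 1460), where the 28 cells of HIP_2MPT held 15 UMIs at 306 CPM (171 to 505).

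**Figure D4:**
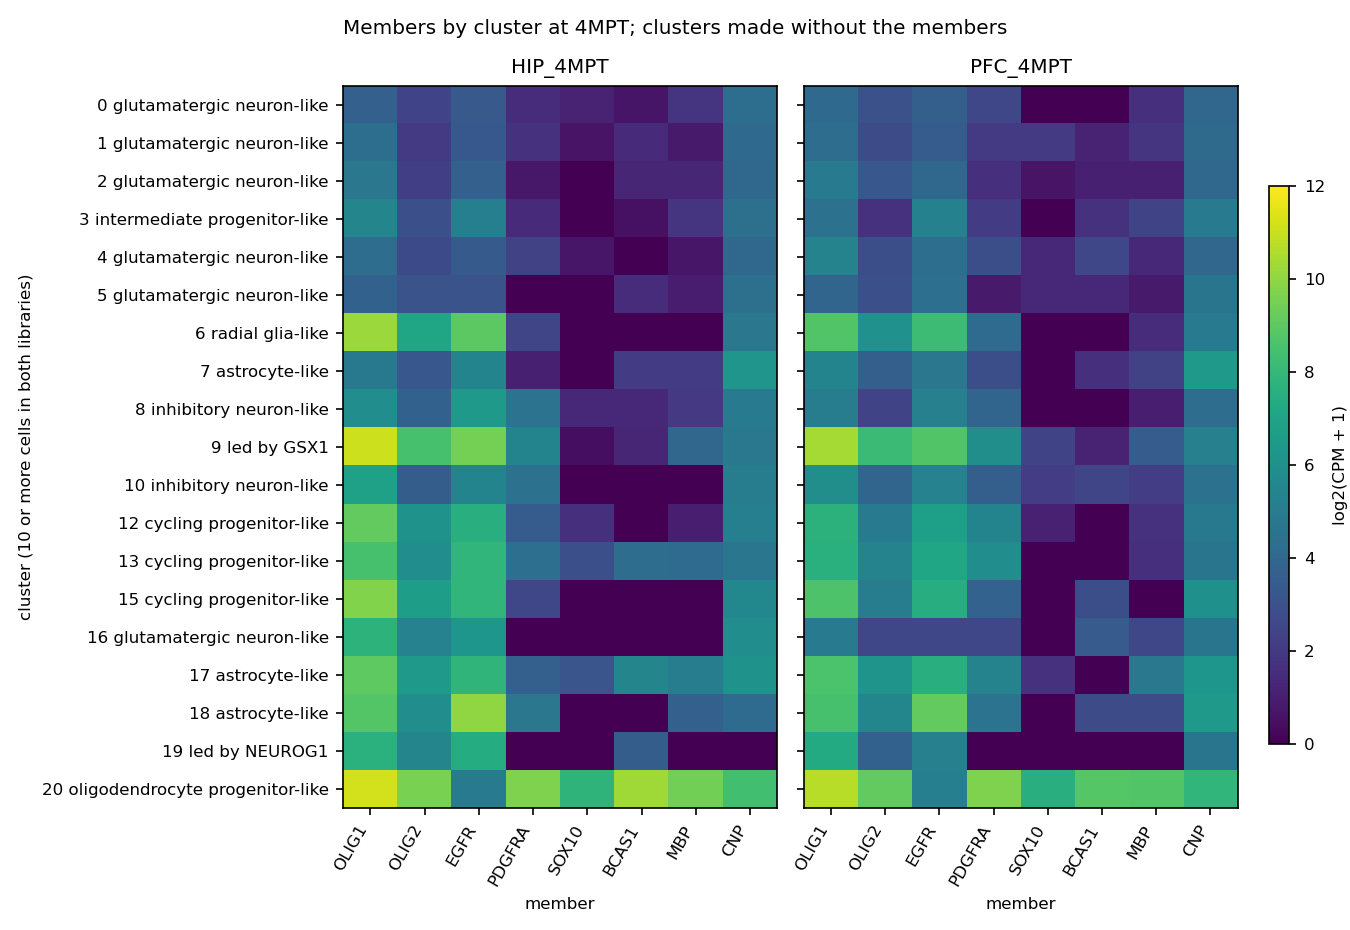
Level of each gene, as log2(CPM + 1), in each cluster with at least 10 cells in both 4MPT libraries, where clusters were made without these genes. OLIG1 and OLIG2 are bright in the cluster led by GSX1 and in the oligodendrocyte progenitor-like cluster. EGFR is bright in the former and dark in the latter. PDGFRA, SOX10, BCAS1, MBP and CNP are brightest in the oligodendrocyte progenitor-like cluster.

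Cells grouped by which of the 8 genes they held also differed in lineage genes that the grouping did not use. At 4MPT, 1020 cells of HIP and 468 of PFC held OLIG1 or OLIG2 with EGFR and neither PDGFRA nor SOX10. In a second group, 75 and 128 cells held OLIG1 or OLIG2 with PDGFRA or SOX10 and no EGFR. Another 98 and 68 cells held OLIG1 or OLIG2 with EGFR and also PDGFRA or SOX10, and were in neither group. Of the first group, 57.2% and 62.2% were in the GSX1-led cluster and 1 cell per site in the oligodendrocyte progenitor-like cluster, and of the second 18.7% and 25.0% and 62.7% and 57.8%. The 26 and 17 cells with at least 2 of SOX10, BCAS1 and MBP were in the oligodendrocyte progenitor-like cluster for 84.6% and 94.1%. PCDH15, a protocadherin of oligodendrocyte progenitors, was at 10.0 CPM (7.24 to 13.6) in the EGFR group and 955 CPM (843 to 1078) in the PDGFRA or SOX10 group of HIP, and at 20.9 CPM (14.0 to 30.1) and 608 CPM (529 to 696) in those of PFC. APOD, an apolipoprotein of late progenitors, was at 1.20 CPM (0.388 to 2.79) and 1145 CPM (1022 to 1279) in HIP and at 5.06 CPM (2.03 to 10.4) and 860 CPM (765 to 963) in PFC.

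Some genes of premyelinating and myelinating cells were higher still in cells with at least 2 of SOX10, BCAS1 and MBP (the late group). These values describe the cells and carry no test. A cell can be in the late group and in the PDGFRA or SOX10 group at once. Other myelin genes were nearly absent, with MOBP at 1 (HIP) and 2 (PFC) UMIs in the whole 4MPT libraries and OPALIN at 0 in both. GPR17 had 0 UMIs in the EGFR group at both sites, 190 CPM (142 to 249) and 122 CPM (87.6 to 164) in the PDGFRA or SOX10 group, and 736 CPM (589 to 909) and 735 CPM (523 to 1005) in the late group. MOG, of the outer myelin sheath, had 0 UMIs in the EGFR groups and 12 and 10 UMIs in the late groups (103 CPM and 188 CPM). Summed over the 6 cycling markers, the level was 1348 CPM and 865 CPM in the EGFR group, 1342 CPM and 625 CPM in the PDGFRA or SOX10 group, and 325 CPM and 75.4 CPM (38 and 4 UMIs) in the late group. The 5 neural crest and Schwann cell markers, listed because SOX10 and MBP are shared with Schwann cells, summed to 128 CPM and 94.2 CPM in the late group (15 and 5 UMIs) and to 9.33 CPM and 4.33 CPM in the EGFR group. Astrocyte markers summed to 2422 CPM in the late group of HIP (8 of 8 found) and 113 CPM in that of PFC (4 of 8 found), and the part of such other RNA in the results was not tested. The late groups had medians of 4216 and 3140 UMIs per cell, and cells with none of the 7 genes other than CNP had 2533 and 1702.

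**Figure D5:**
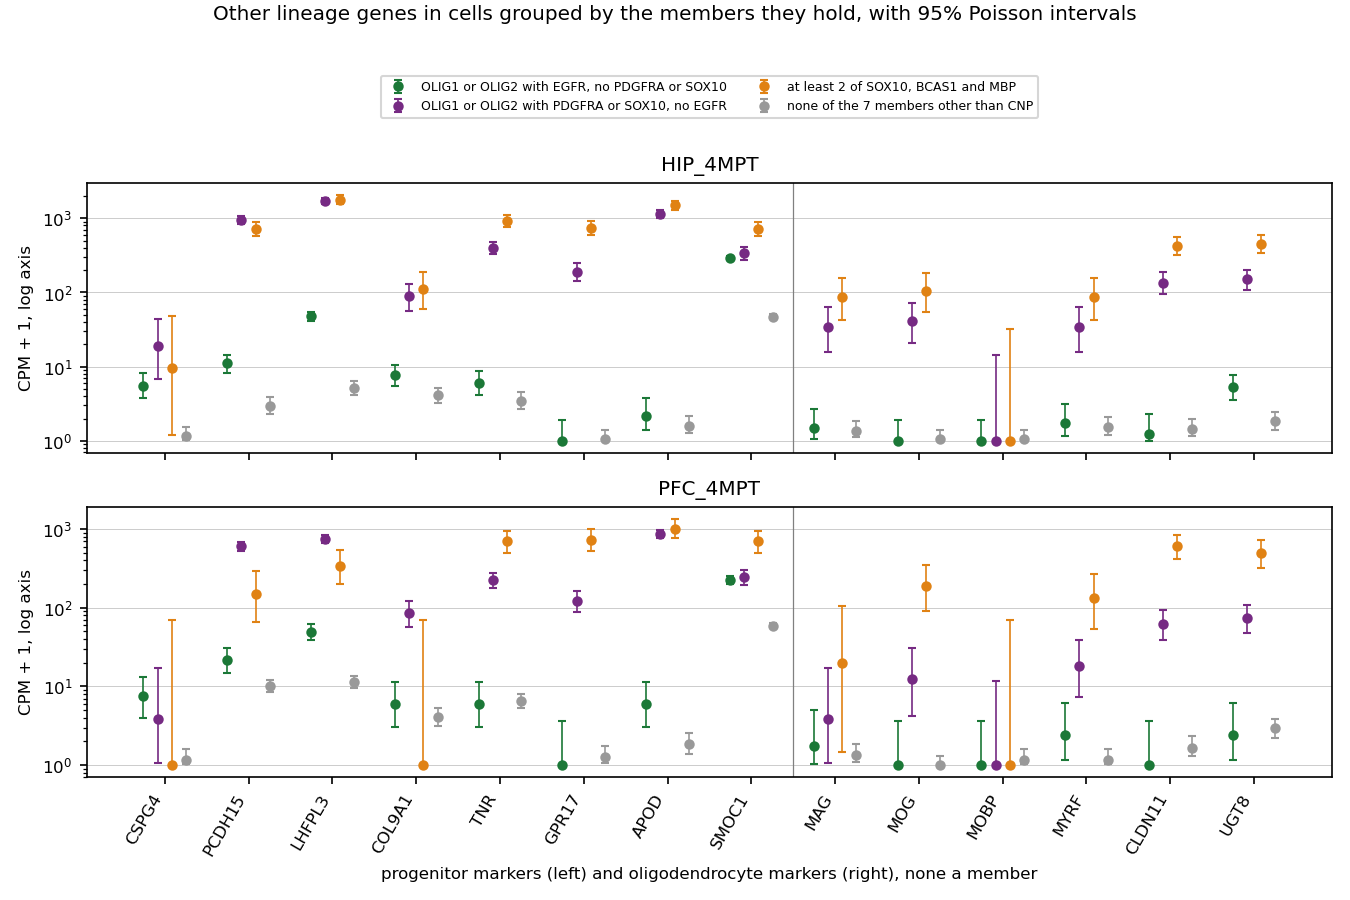
Level of 8 progenitor and 6 oligodendrocyte markers, none of them among the 8 genes described, in 4MPT cells grouped by the genes they held, as CPM + 1 on a log axis with 95% Poisson intervals. PCDH15, APOD and GPR17 are low in the EGFR group (green) and high in the groups with PDGFRA or SOX10 (purple) and with at least 2 of SOX10, BCAS1 and MBP (orange), and UGT8 and CLDN11 are highest in the last.

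Other genes of the pathway were taken from lists that held none of the 8. The lists were chosen with earlier results of these data known, and differences between them were not tested. At 4MPT against 2MPT, 12 of 20 progenitor genes were higher and 0 lower, where 1.85% of all genes were called higher (median log2 fold change 2.75, against -0.0089 over all genes tested), and 15 of 20 had an unadjusted p under 0.05. The unadjusted counts were 10 of 14 for premyelinating genes, 7 of 15 for myelin genes, 7 of 15 for specification factors and 6 of 12 for ligands and receptors. Of the myelin genes, 1 of 15 tested was higher (median 1.01), and of premyelinating genes 4 of 14 (median 0.84). Specification factors gave 2 of 15 higher (median 0.72) and growth factor ligands and partner receptors 3 of 12 (median 1.05), and no gene of these lists was called lower. APOD rose by 7.41 on the log2 scale (SE 0.66, adjusted p = 0.000501), from 0.271 CPM in HIP_2MPT and 0 in PFC_2MPT to 17.7 CPM in HIP_4MPT and 22.5 CPM in PFC_4MPT. ERBB4, a neuregulin receptor, rose by 5.06 (SE 0.35, adjusted p = 0.000249), from 2.80 CPM and 1.40 CPM to 59.0 CPM and 72.0 CPM. The chondroitin sulfate proteoglycan BCAN rose by 3.15 (SE 0.35, adjusted p = 0.00165), LHFPL3 by 3.33, LUZP2 by 3.04, S100B by 2.98 and PCDH15 by 2.63. Beyond the progenitor genes, SOX8 rose by 1.43 (SE 0.29, adjusted p = 0.0287), TCF7L2, a Wnt effector of premyelinating cells, by 1.25 (SE 0.26, adjusted p = 0.0311), PMP22 by 2.09 (SE 0.41, adjusted p = 0.0269) and NRG3 by 1.78 (SE 0.40, adjusted p = 0.0437). The level of TCF7L2 was highest in D0, at 38.2 CPM, against 10.1 CPM (HIP) and 11.8 CPM (PFC) at 2MPT and 29.5 CPM and 21.0 CPM at 4MPT. BCAN, S100B, NRG3 and ERBB4 are also expressed by astrocytes or neurons, and PMP22 by Schwann cells.

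Against D0, 8 of 20 progenitor genes were higher and 2 lower at 2MPT, and 15 were higher and 1 lower at 4MPT, where 28.7% of all genes were called higher and 21.4% lower (27.2% and 21.1% at 2MPT). Myelin genes gave 0 higher and 3 lower of 15 at 2MPT and 4 higher and 1 lower at 4MPT, shares near those of all genes or below them. Between the sites, 1 of 15 specification factors was called and no gene of the other lists was. Beside these rises, the 8 astrocyte markers summed to 136 CPM and 152 CPM in the 2MPT libraries (HIP, PFC) and to 1199 CPM and 613 CPM at 4MPT, and the 7 inhibitory neuron markers to 5.69 CPM and 21.1 CPM and to 169.7 CPM and 549.7 CPM. All of these were detected except SLC32A1, which was at 0 in HIP_2MPT. The 5 neural crest and Schwann cell markers summed to 3.25 CPM and 4.01 CPM and to 7.04 CPM and 6.24 CPM, with FOXD3 at 0 in 3 of the 4 grafts. Their part in the results was not tested.

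Across 75 groups of at least 50 cells (clusters by library) the early and the late genes had different nearest neighbours. Pearson's r of log2(CPM + 1) across these groups, which share libraries and depth and are no replicates, was 0.91 between OLIG1 and OLIG2, 0.88 between OLIG1 and EGFR, 0.79 between SOX10 and BCAS1, 0.73 between SOX10 and MBP, and 0.11 between EGFR and BCAS1. Among 10198 other genes, AC007402.1 (0.89), SLC24A3 (0.87) and MAML2 (0.84) were most alike to OLIG1, and MAML2 (0.80), AC007402.1 (0.79) and UST (0.78) to OLIG2. SLC24A3 (0.90), AC007402.1 (0.90) and GSG1L (0.89) were most alike to EGFR. PDGFRA was followed by MAML2 (0.82), AC092958.1 (0.82) and NXPH1 (0.80). APOD led for SOX10 (0.86), BCAS1 (0.83) and MBP (0.78), followed by MDGA2 (0.75) and SIRT2 (0.73) for SOX10, SGCD (0.71) and PLLP (0.69) for BCAS1, and LRRC4C (0.74) and MDGA2 (0.72) for MBP. CNP was most alike to SPRY2 (0.74), CHMP2B (0.73) and COPRS (0.71).

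Host oligodendrocytes surround a graft, so the mouse counterparts were counted in the same human cells. Mouse Mbp had 456 (HIP) and 244 (PFC) UMIs in human cells at 2MPT and 998 (HIP) and 1370 (PFC) at 4MPT, the most of the 8 mouse genes in each library. Counted against the human genes of the dual reference, where mouse reads have a genome of their own, human MBP had 238 UMIs in HIP_4MPT and 159 in PFC_4MPT, against 249 and 165 with the human reference alone. For OLIG1 these were 9474 and 3681 UMIs against 9490 and 3684, and for SOX10 62 and 66 against 64 and 69. In the dual reference, the 7 genes that rose between the graft stages were called as well. At 2MPT, SOX10 had 3 and 7 UMIs in the dual reference and 4 and 7 in the human reference.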

How the data were processed

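Single-cell RNA was measured with 10x Chromium in 5 libraries. The deposited files hold raw UMI counts per gene and cell, made by the authors with Cell Ranger on a human reference (GRCh38) and, for grafts, a human and mouse dual reference. The submitters' processing notes name Cell Ranger 3.1, and the file headers give 3.1.0 for D0 and 5.0.0 for grafts.

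Cells were kept with over 500 UMIs, over 500 genes, a log10 gene number over 0.8 of the log10 UMI number, a mitochondrial share under 0.15 and, in grafts, over 0.8 of dual-reference UMIs on human genes. Groups followed the labels. The members and lists were chosen with earlier results of these data known. Named list genes were the called genes of each list with a mean of at least 10 CPM over the graft libraries, at most 6 a list by fold change. Counts were summed per library over the 32732 genes of both annotations and tested with edgeR 4.0.16 (TMM, filterByExpr, quasi-likelihood, adjusted p under 0.05). The SE given with an edgeR fold change is its absolute log2 value over the square root of its F statistic, so that it carries the same information as the p-value. DESeq2 1.42.0 was an alternative. D0, as 1 library, adds no residual degree of freedom. On simulated data for 4MPT against 2MPT, the test found 83 of 100 genes changed 4-fold and 26 of 100 changed 2-fold, with 3 false calls. Clusters came from Seurat 5.3.0 (SCTransform, RPCA) without the 8 genes. They were named with at least 3 markers of a list at 10 CPM or more and at least 2 times the median cluster. A cluster stayed unnamed where more of its 10 leading genes belonged to other lists (or, outside oligodendrocyte lists, to the 8 genes but EGFR) than to the list itself. It also stayed unnamed where its cells were far shallower than their libraries and no leading gene was in the list. Doublets were not removed in the main results, since Scrublet marked 0 or 1 cells a library. The highest 6% of scores were left out as an alternative. The study's test on single cells was not used, because cells of a library are not replicates. Some list genes are not reported here.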

Additional observations from a re-analysis of the deposited data

Results flagged for a closer look

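OLIG1 and EGFR differed between the graft sites in opposite directions at the 2 stages. The ratio of PFC to HIP was 5.15 for OLIG1 at 2MPT and 0.494 at 4MPT. For EGFR it was 2.65 at 2MPT and 0.509 at 4MPT. With 1 library per site and stage the difference between stages was not tested.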

How the results depend on the processing

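The direction and side of the threshold were kept in 336 of 360 alternative fold changes of the 8 genes. Shares were less stable, with alternatives that include other thinning depths. Outside the main interval lay 88 of 312 shares of cells and 34 of 168 shares of co-detection. Thinning was a single random draw. In the dual reference, thinned separately, HIP_4MPT had 12 SOX10 cells and 36 MBP cells, against 21 and 52. Between 4MPT and 2MPT, 457 genes were called, 1347 with no filter on low counts, 738 with the graft site as a block and 32 to 1508 with 1 library left out. Between the sites, 15 were called, 7 with DESeq2, 3 with DESeq2 size factors, 36 with no filter, 30 with a human share over 0.9, 23 with a mitochondrial share under 0.10, 4 over 1000 UMIs, 2 without the highest doublet scores and 0 with no stage in the fit. From D0 to 2MPT, PDGFRA turned to -0.021 with no filter, -0.039 over 1000 UMIs and -0.11 without the highest doublet scores. With 1 library left out it ran from -0.56 (without PFC_2MPT) to 0.40, and MBP from -1.78 to 0.041 (without PFC_2MPT). With no stage in the fit, OLIG1 and EGFR turned to -0.82 and -0.69 between the sites. The cause was not tested. The labels give no replicate numbers. The fit with the graft site as a block, the only pairing of libraries the design allows, left the calls of the 8 genes as they were. Leaving out a library between the sites was not run, since no residual degree of freedom is left. SOX10 at 2MPT rests on 4 and 7 UMIs.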
